A study of Mus musculus with 6 samples.

Results

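The inhibitors, pocket proteins and D cyclins that decide whether a cell leaves the division cycle were followed in C2C12 cells in which an siRNA targeted Meg3, an imprinted long non-coding RNA. The members were 10 genes: the CDK inhibitors Cdkn1a, Cdkn1b, Cdkn1c and Cdkn2c, the pocket proteins Rb1, Rbl1 and Rbl2, and the D cyclins Ccnd1, Ccnd2 and Ccnd3. They were found through the RefSeq accessions in the array design, with every probe kept, which gave 13 of the 39429 non-control probes and 10 of 20659 named genes. C2C12 is an established mouse myoblast line that divides in serum-rich medium and can form myotubes. One group received siRNA-MEG3 and the other a negative control siRNA, siRNA-NC; both were transfected at 70 to 80% confluence in medium with 10% serum, with siRNA given as "20 um" in the labels. Each group had 3 single-colour Agilent arrays called biological replicates. How long after transfection RNA was taken is not stated in the sources used here.

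In G1, D cyclins bind CDK4 and CDK6 and phosphorylate the pocket proteins, which otherwise hold E2F factors and keep replication genes silent. Proteins of the Cip/Kip family (Cdkn1a, Cdkn1b, Cdkn1c) and of the Ink4 family (Cdkn2c) oppose these kinases. When myoblasts differentiate, exit from the cycle is known to involve p21, the product of Cdkn1a, together with hypophosphorylated Rb and cyclin D3.

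Repeated spots showed that not all 6 arrays were independent. On 227 probes printed 10 times, the spot residuals of siRNA-MEG3 arrays 1 and 3 correlated at 0.98, against -0.19 to 0.52 in the other 14 pairs of arrays. Between siRNA-NC arrays 1 and 3 the differences were about as large as the sampling noise of spots (between-probe over within-probe variance 1.04). Their spot residuals correlated at 0.42, inside the range of the other pairs. Averaging them rested on the small differences alone, and whether they are separate samples was not settled. Both pairs were averaged, each standing as a single sample, so there were 2 samples in each group. The p-values measure only the spread between these samples, which may be technical. Arrays 1 and 2 of siRNA-MEG3 were close too (ratio 1.33), while siRNA-NC arrays 1 and 2 stood far apart (159.0). For siRNA-MEG3 arrays 1 and 3 the ratio was 2.10, so it does not rank pairs whose spot noise differs. The SD of the probe differences was 0.020 for that pair and 0.052 for siRNA-NC arrays 1 and 3. It was 0.137 for siRNA-MEG3 arrays 1 and 2 and 0.555 for siRNA-NC arrays 1 and 2. The recorded slide position was the same for siRNA-MEG3 arrays 1 and 3 and for siRNA-MEG3 array 2 and siRNA-NC array 1. It differed in all other pairs. The slide was not a term in the fit, so an effect of the slide was not told apart from one of the siRNA. Between 62.8 and 69.3% of spots were well above background with siRNA-MEG3 and 70.1 to 75.2% with siRNA-NC. Meg3 itself had 3 probes, of which none was well above background on a siRNA-MEG3 array and 1 was so on a single siRNA-NC array, so the knockdown could not be read here. Of 9 myoblast markers 7 were well above background on all arrays. The summed relative signal of the list was 72.7 to 76.7 with siRNA-MEG3 and 37.6 to 43.7 with siRNA-NC. Chrna1 alone gave 32.1 to 34.7 and 11.5 to 13.3 of these sums. Of 8 myoblast markers with a fold change, 5 were positive and 3 negative, with Myf5 lowest at log2 -2.87. The markers of fibroblasts summed to 2.58 to 2.67 with siRNA-MEG3 and 3.56 to 4.93 with siRNA-NC, and those of adipocytes, endothelium, blood and neural cells to at most 2.20 on any array. Msc among the myoblast markers and Dpt, Lep and Emcn among the others were not well above background on any array. The part of these marker differences in the results below was not tested.

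The promoters of 3 members are shown because their probes gave the smallest p-value (Rbl1), the only separation downwards (Cdkn1b) and an inhibitor read from repeated spots (Cdkn1a, which has 2 annotated starts). Each line gives the 250 bases before a start in RefSeq, 5′ to 3′ on the gene's strand, GRCm38.p6. Capitals mark matches on either strand to the E-box CANNTG (letters bound by MyoD and its relatives), the E2F site TTTNGCGC, the GC box GGGCGG (bound by Sp1) and the p53 half-site. No matches of different motifs overlapped in them.
Rbl1, chr2:157204535-157204784, minus strand: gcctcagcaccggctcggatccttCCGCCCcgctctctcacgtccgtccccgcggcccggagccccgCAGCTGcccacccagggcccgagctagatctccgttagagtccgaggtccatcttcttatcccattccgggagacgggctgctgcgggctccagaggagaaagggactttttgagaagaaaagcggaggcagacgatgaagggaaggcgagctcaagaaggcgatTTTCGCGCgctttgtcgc
Cdkn1b, chr6:134920151-134920400, plus strand: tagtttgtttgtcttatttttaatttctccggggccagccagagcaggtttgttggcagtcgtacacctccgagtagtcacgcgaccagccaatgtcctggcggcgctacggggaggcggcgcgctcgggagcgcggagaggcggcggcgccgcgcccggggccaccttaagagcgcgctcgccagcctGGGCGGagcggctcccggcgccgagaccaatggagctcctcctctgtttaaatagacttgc
Cdkn1a first start, chr17:29090729-29090978, plus strand: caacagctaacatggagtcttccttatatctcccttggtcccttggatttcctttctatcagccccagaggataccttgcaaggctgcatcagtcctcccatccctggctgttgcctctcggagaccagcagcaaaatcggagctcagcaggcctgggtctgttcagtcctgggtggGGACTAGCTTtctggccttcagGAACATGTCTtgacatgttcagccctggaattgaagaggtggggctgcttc
Cdkn1a second start, chr17:29093519-29093768, plus strand: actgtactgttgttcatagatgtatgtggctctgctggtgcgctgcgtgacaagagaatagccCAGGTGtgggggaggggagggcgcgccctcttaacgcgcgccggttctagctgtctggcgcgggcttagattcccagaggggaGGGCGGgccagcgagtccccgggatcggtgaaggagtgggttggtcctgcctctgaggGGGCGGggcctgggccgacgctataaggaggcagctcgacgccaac
The Rbl1 window held 1 E2F match, TTTCGCGC, from base -18 to -11 before the start; 1.13% of 32851 windows of that length in the table hold one. It also held 1 E-box, CAGCTG, and 1 GC box. The second Cdkn1a window held 1 E-box and 2 GC boxes, and the first held 2 matches to the p53 half-site, a motif found in 7.13% of windows. Cdkn1b had 1 GC box. E-boxes are present in 66.2% and GC boxes in 32.7% of windows. The table also holds windows of Cdkn2c, Rbl2 and Ccnd3, none of which had an E2F match.

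No member probe passed the test between siRNA-MEG3 and siRNA-NC. Values below are relative signals, the processed signal divided by the 75th percentile of its array, and fold changes are log2 differences of siRNA-MEG3 minus siRNA-NC with their SE (n = 2 samples per group) from limma. All 13 probes passed the filter on dim probes, and 0 of 13 reached a limma adjusted p under 0.05 in either direction. Over the whole array 361 of 26345 probes (1.37%) did, 263 higher (0.998%) and 98 lower (0.372%), a share of 72.9% upwards, where a fit of the authors' deposited table gave 86.7%. At an unadjusted p under 0.05 there was 1 member probe, higher, against 11.6% of all probes higher and 7.57% lower. In single arrays, 6 member probes lay above all siRNA-NC arrays on all 3 siRNA-MEG3 arrays, against 28.6% of all probes, and 1 lay below, against 18.3%. The 7 without overlap compare with 46.9% of all probes, and 6 overlapped. The fold change was positive for 9 of 13 member probes, against 53.6% of all probes. The median fold change was 0.13 over the member probes and 0.05 over all probes, and the median size, sign ignored, was 0.45 and 0.38. With normexp background correction on all spots the median of all probes was 0.62. The brighter or only probes of Cdkn1a, Rb1 and Ccnd3 then stood below it, at 0.22, 0.18 and 0.04. When the spots of a bright speck on siRNA-MEG3 array 2 were left out, the normexp median was 0.17. These probes then stood above it, at 0.53, 0.46 and 0.34.

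**Figure D1:**
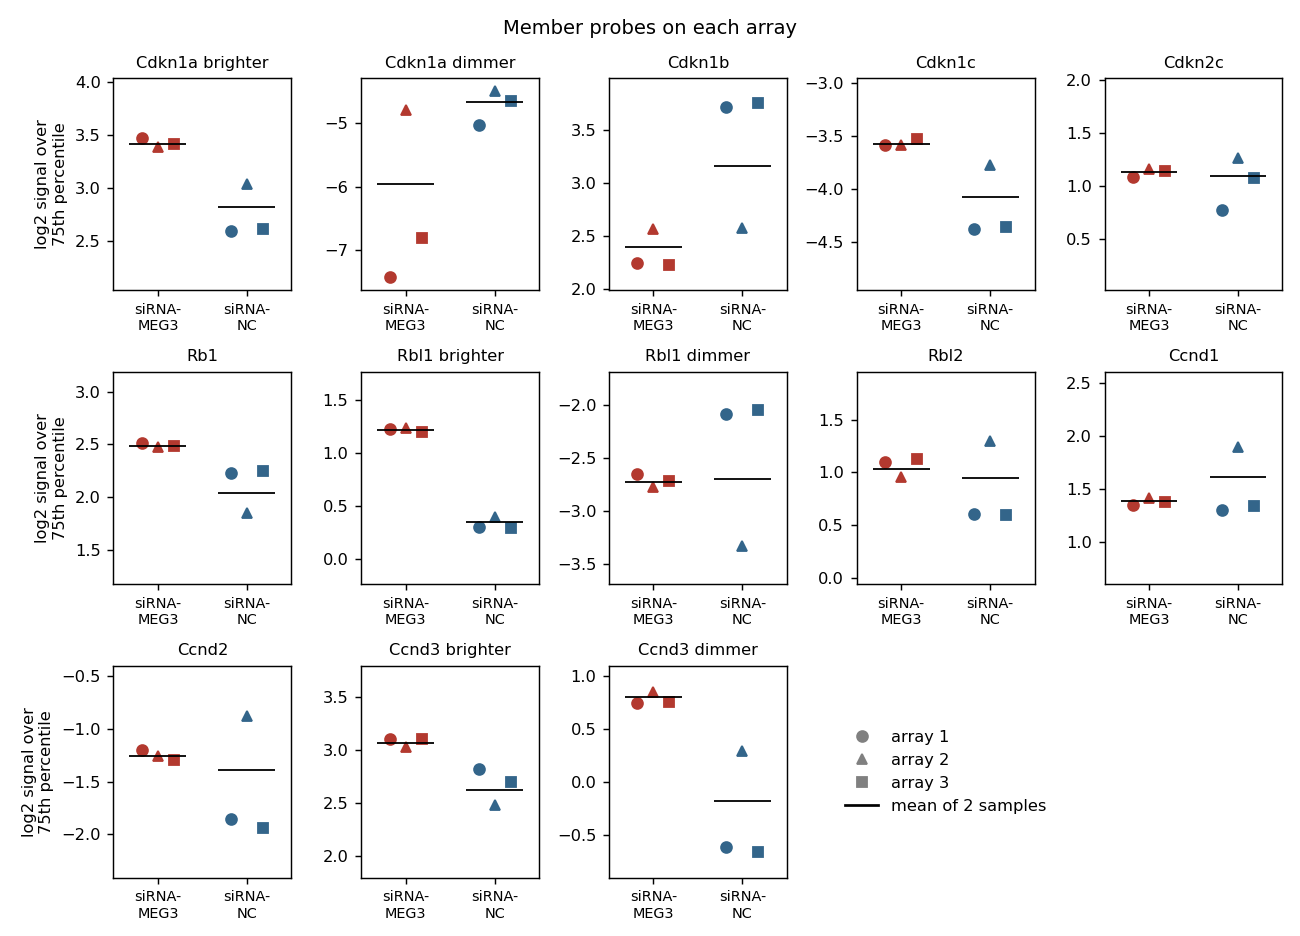
Each panel plots 1 member probe as log2 signal over the array's 75th percentile (vertical axis), with siRNA-MEG3 arrays in red on the left and siRNA-NC arrays in blue on the right; symbols mark the array number and lines the mean of the 2 samples. The siRNA-MEG3 arrays sit close together for all probes other than the dimmer Cdkn1a probe and, by less, Cdkn1b, while siRNA-NC array 2 stands apart from arrays 1 and 3 for most probes; Rbl1 brighter is the clearest separation, with siRNA-NC arrays at 0.29 to 0.40.

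Among the inhibitors, Cdkn1a encodes p21, which blocks cyclin-CDK complexes and is a textbook target of p53 and of MyoD. Its brighter probe read 11.1, 10.4 and 10.7 on siRNA-MEG3 arrays 1 to 3, against 6.05, 8.20 and 6.10 on siRNA-NC arrays 1 to 3. All siRNA-MEG3 arrays were above all siRNA-NC arrays, with siRNA-NC array 2 nearest to them. The mean was 1.51-fold higher (log2 0.59 ± 0.25, 95% interval -0.08 to 1.27), and the difference did not pass (adjusted p = 0.309).

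That probe was printed as 10 spots, so its reading error within an array can be seen directly. Coefficients of variation between clean spots were 4.75, 6.49 and 4.92% on the siRNA-MEG3 arrays and 5.43, 6.07 and 7.76% on the siRNA-NC arrays. The lowest clean siRNA-MEG3 spot, at 3.29 on the log2 relative scale, was above the highest siRNA-NC spot, at 3.18. Spot noise was smaller than the gap between the groups, while the 2 siRNA-NC samples differed by 0.43. Dark areas covered 33.7, 5.87 and 25.02% of siRNA-MEG3 arrays 1 to 3 and 0% of the siRNA-NC arrays. They were scored in a grid of 30 by 17 spots. A block was dark if more than 5% of its spots were over 4-fold dimmer than with siRNA-NC. Each siRNA-NC array was scored against the other siRNA-NC arrays. Genes lower with siRNA-MEG3 could thus add to the dark share of siRNA-MEG3 arrays only, so the shares of the groups are not like for like. On siRNA-MEG3 array 1, 3 of the 10 spots lay in such blocks, with a median of 3.48, and the 7 outside had a median of 3.43.

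A dimmer Cdkn1a probe, designed on another transcript record, had a negative fold change, which was not stable. It read 0.00582, 0.0360 and 0.00889 on siRNA-MEG3 arrays 1 to 3, against 0.0304, 0.0441 and 0.0396 on siRNA-NC arrays 1 to 3. Array 2 of siRNA-MEG3 lay within the siRNA-NC range and arrays 1 and 3 below it. The single spot of this probe lay in a dark block on siRNA-MEG3 arrays 1 and 3 and stood well above background on a single siRNA-MEG3 array and on 3 of 3 siRNA-NC arrays; the part of the dark patches in its difference was not tested. The log2 fold change was -1.28 ± 0.83 (adjusted p = 0.485), while normexp gave 1.23 on all spots and -0.08 without a bright speck on siRNA-MEG3 array 2. The probe passed without siRNA-MEG3 array 2, but the siRNA-MEG3 sample left was then not well above background and lay in the dark block, so no size or p is given.

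**Figure D2:**
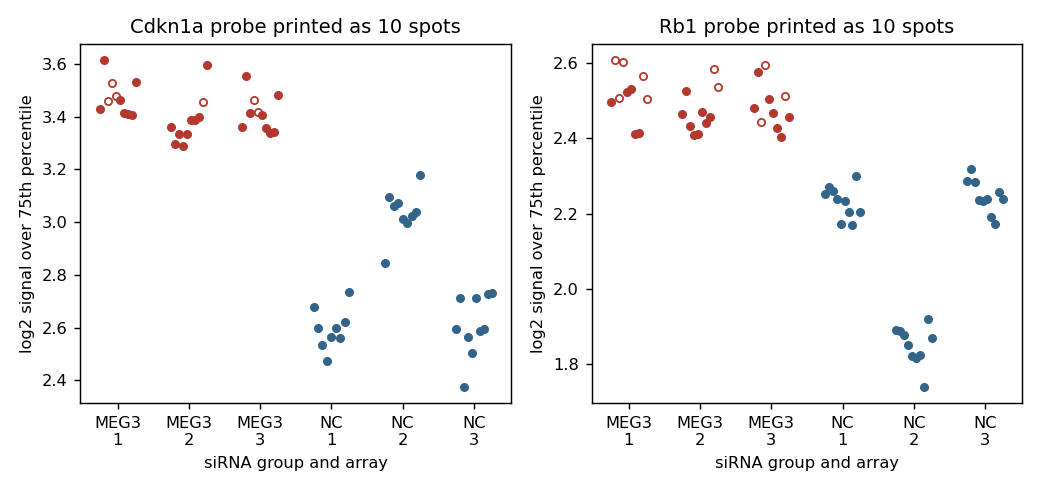
Clean spots of the Cdkn1a and Rb1 probes that were printed 10 times, as log2 signal over the 75th percentile (vertical axis) on the 3 siRNA-MEG3 (red) and 3 siRNA-NC (blue) arrays; open circles are spots in dark blocks. For Cdkn1a the spots of siRNA-MEG3 arrays start at 3.29 and those of siRNA-NC end at 3.18; for Rb1 the siRNA-MEG3 spots start at 2.40 and the siRNA-NC spots end at 2.32.

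Cdkn1b encodes p27, the inhibitor that holds CDK2 in check in resting cells. The probe read 4.73, 5.91 and 4.67 on siRNA-MEG3 arrays 1 to 3, against 13.1, 5.97 and 13.5 on siRNA-NC arrays 1 to 3. The arrays did not overlap, but siRNA-NC array 2 and siRNA-MEG3 array 2 were almost level, and the 2 siRNA-NC samples differed by 1.16 on the log2 scale, more than the group means did. The log2 fold change was -0.76 ± 0.46 (95% interval -1.99 to 0.48, adjusted p = 0.457). It was -1.34 against siRNA-NC arrays 1 and 3 alone and -0.18 against siRNA-NC array 2 alone. Among the 4 member inhibitors, Cdkn1b was the 1 with a negative fold change on a probe above background on all arrays.

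Cdkn1c encodes p57, an imprinted inhibitor known for its part in embryonic muscle. It was dim, at 0.0831, 0.0830 and 0.0863 on siRNA-MEG3 arrays 1 to 3, against 0.0480, 0.0730 and 0.0487 on siRNA-NC arrays 1 to 3, and was well above background on all 6. The groups did not overlap, with siRNA-NC array 2 again nearest to siRNA-MEG3. The log2 fold change of 0.50 ± 0.29 did not pass (adjusted p = 0.437). It was 0.80 without siRNA-NC array 2 and 0.29 with the authors' deposited table. Normexp gave 1.48 on all spots and 0.47 without the bright speck on siRNA-MEG3 array 2.

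Cdkn2c encodes p18, an Ink4 protein that binds CDK4 and CDK6. Its relative signal was 2.11, 2.23 and 2.20 on siRNA-MEG3 arrays 1 to 3, against 1.70, 2.40 and 2.11 on siRNA-NC arrays 1 to 3, so that the siRNA-MEG3 values lay inside the siRNA-NC range. The log2 fold change was 0.04 ± 0.23 with a 95% interval of -0.59 to 0.67, which still holds differences of that size. Of the other Ink4 genes, Cdkn2d stood at -0.27 ± 0.33 (adjusted p = 0.730), and Cdkn2a and Cdkn2b had probes but did not pass the filter on dim probes.

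Among the pocket protein genes, Rbl1 and Rb1 had positive fold changes on their brighter or only probe and Rbl2 was close to 0; none passed. Rbl1 encodes p107, which partners repressive E2F factors and whose own gene is a known E2F target. Its brighter probe read 2.34, 2.35 and 2.29 on siRNA-MEG3 arrays 1 to 3, against 1.23, 1.32 and 1.23 on siRNA-NC arrays 1 to 3. This was the tightest contrast among the members, with every array of a group near the others. The mean was 1.83-fold higher (log2 0.87 ± 0.21, 95% interval 0.32 to 1.43), the 1 interval among the 13 that left out 0; the unadjusted limma p was 0.0112 and the adjusted p 0.151, so it did not pass either. It passed in 3 of 19 alternatives, all of which count near-identical arrays as separate samples (adjusted p from 0.00296 to 0.0310). Its spot lay in a dark block on siRNA-MEG3 arrays 1 and 3 but not on array 2, and array 2 differed from them by 0.02 on the log2 scale.

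A second, dimmer Rbl1 probe, designed on another transcript record, did not repeat this. It read 0.159, 0.146 and 0.151 on siRNA-MEG3 arrays 1 to 3, against 0.235, 0.0989 and 0.242 on siRNA-NC arrays 1 to 3. The siRNA-MEG3 arrays lay between the 2 siRNA-NC samples, and the log2 fold change was -0.03 ± 0.48. The sign depended on the siRNA-NC sample, at -0.67 against arrays 1 and 3 and 0.60 against array 2. The difference between the probes was not tested.

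Rb1, the retinoblastoma gene, gave 5.72, 5.56 and 5.61 on siRNA-MEG3 arrays 1 to 3, against 4.69, 3.60 and 4.74 on siRNA-NC arrays 1 to 3. No arrays overlapped, and here siRNA-NC array 2 was the farthest from siRNA-MEG3. Between its 10 spots the coefficient of variation was 2.92 to 4.64% over all arrays, so the arrays were separated beyond spot noise. The log2 fold change of 0.44 ± 0.24 (1.36-fold) did not pass (adjusted p = 0.412), and was 0.25 without siRNA-NC array 2. Normexp gave 0.18 on all spots and 0.46 without the bright speck on siRNA-MEG3 array 2. Rbl2, which encodes p130, the pocket protein of resting cells, read 2.14, 1.94 and 2.18 on siRNA-MEG3 arrays 1 to 3, against 1.53, 2.46 and 1.51 on siRNA-NC arrays 1 to 3. Its groups overlapped, and its log2 fold change was 0.08 ± 0.32 (adjusted p = 0.922). The sign turned against siRNA-NC array 2 alone (-0.26) and in 3 alternatives, of which normexp on all spots was lowest (-0.19).

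**Figure D3:**
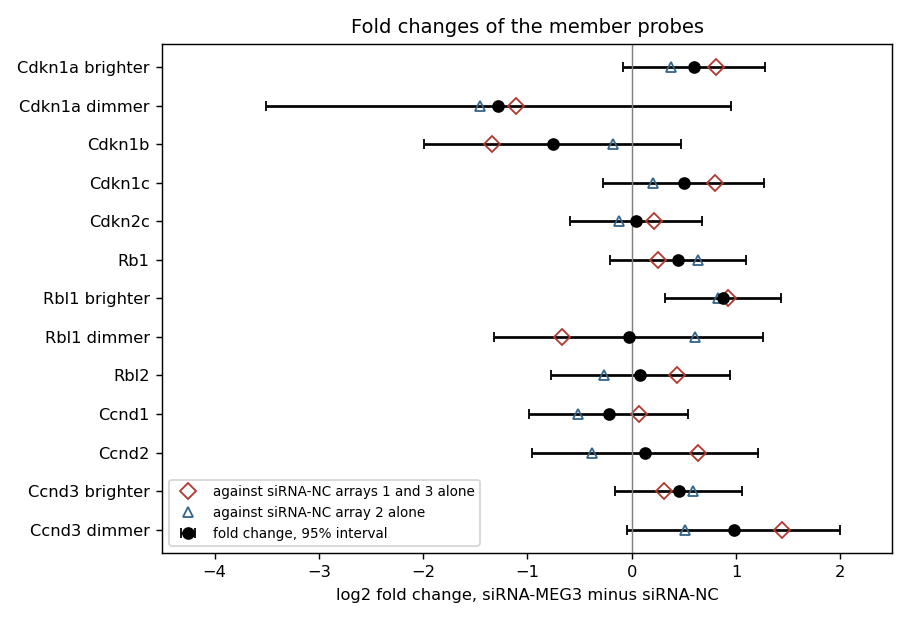
Log2 fold change of siRNA-MEG3 minus siRNA-NC (horizontal axis) for the 13 member probes, as black points with 95% intervals; open diamonds give the same difference against siRNA-NC arrays 1 and 3 alone and open triangles against siRNA-NC array 2 alone. The interval of the brighter Rbl1 probe, 0.32 to 1.43, leaves out 0 and the other 12 contain it.

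Of the D cyclins, Ccnd3 is the one known to stay high in myotubes. Its brighter probe read 8.57, 8.17 and 8.62 on siRNA-MEG3 arrays 1 to 3, against 7.04, 5.57 and 6.49 on siRNA-NC arrays 1 to 3. Its dimmer probe, designed on another transcript record, read 1.68, 1.81 and 1.68 on siRNA-MEG3 arrays 1 to 3, against 0.651, 1.22 and 0.631 on siRNA-NC arrays 1 to 3. Both probes were higher on all siRNA-MEG3 arrays than on any siRNA-NC array. The brighter probe gave a log2 fold change of 0.45 ± 0.23 (adjusted p = 0.378) and the dimmer one 0.98 ± 0.38, or 1.97-fold (adjusted p = 0.276). With all 6 arrays counted as samples the dimmer probe passed (1.11, adjusted p = 0.0318), as did the brighter Cdkn1a probe (0.68, adjusted p = 0.0247).

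Ccnd1, the D cyclin of growth factor response in dividing myoblasts, was level apart from 1 array. It read 2.54, 2.67 and 2.59 on siRNA-MEG3 arrays 1 to 3, against 2.47, 3.73 and 2.53 on siRNA-NC arrays 1 to 3. The groups overlapped, and siRNA-NC array 2 alone was high. The log2 fold change was -0.22 ± 0.28 (95% interval -0.99 to 0.54), and without siRNA-NC array 2 it was 0.07. Ccnd2 showed the same split within the control, with 0.433, 0.417 and 0.406 on siRNA-MEG3 arrays 1 to 3 and 0.277, 0.544 and 0.261 on siRNA-NC arrays 1 to 3. Its log2 fold change of 0.13 ± 0.40 (adjusted p = 0.903) averaged 0.64 against siRNA-NC arrays 1 and 3 and -0.38 against siRNA-NC array 2.

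The 2 siRNA-NC samples lay farther apart than the 2 siRNA-MEG3 samples for most members. Array 2 of siRNA-NC was brighter as a whole, with a 75th percentile signal of 2266 against 1168 to 1283 on the other arrays. It also had the highest share of spots well above background, 75.2%. The part of this in the distances was not tested. The median distance over the 13 probes was 0.06 on the log2 scale between the siRNA-MEG3 samples and 0.58 between the siRNA-NC samples, and over all probes it was 0.14 and 0.40. For 7 of 13 probes the distance within siRNA-NC was larger than the fold change, as it was for 50.4% of all probes. For 5 probes, those of Cdkn2c, Rbl2, Ccnd1, Ccnd2 and the dimmer one of Rbl1, the direction differed between the 2 siRNA-NC samples, a share of 38.5% against 30.8% of all probes. Over the 6 arrays, the genes closest to the brighter Cdkn1a probe were Ddx56, D230025D16Rik and Glrx (root mean square distance 0.02 to 0.03 log2 units, of 15366 genes compared), a likeness that rests on 4 samples.

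Genes around these members were read from the same fit, with the brightest kept probe for each gene. Among 22056 genes 1.03% passed higher and 0.394% lower, with a median fold change of 0.06. None of the 8 measured G1 kinase and cyclin genes, 10 E2F and DP genes, 8 subunits and partners of the MuvB and DREAM complexes, and 12 genes for turnover of inhibitors and D cyclins passed in limma; at an unadjusted p under 0.05 they held 2, 2, 3 and 2 higher and 1, 1, 0 and 0 lower genes, against 12.1% higher and 7.33% lower among all genes. The medians of these groups were 0.18, 0.45, 0.49 and 0.11. E2f4, the E2F factor that p130 and p107 recruit in resting cells, stood at -1.56 ± 0.26 (adjusted p = 0.0920), while the activator E2f2 stood at 1.08 ± 0.20 (adjusted p = 0.113). Mybl2, a DREAM target and MuvB partner in dividing cells, stood at 1.35 ± 0.23 (adjusted p = 0.0971). The cyclin A gene Ccna2 stood at 0.95 ± 0.22 (adjusted p = 0.147). The cyclin E gene Ccne1 stood at 0.95 ± 0.24 (adjusted p = 0.168) and Ccne2 at -2.16 ± 0.66 (adjusted p = 0.204). Ccne2 cleared the background on 1 of 3 siRNA-MEG3 arrays. Its spot lay in a dark block on siRNA-MEG3 arrays 1 and 3, reading 0.00453 and 0.00458. On array 2, outside such a block, it read 0.0162, against 0.0364 to 0.0427 on the siRNA-NC arrays. Usp2, a deubiquitinase known to stabilise cyclin D1, stood at 1.25 ± 0.36 (adjusted p = 0.195).

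Most genes that E2F activates for S phase had positive fold changes, though none passed. Of 18 measured, 17 had a positive fold change, with a median of 0.76; 0 passed in limma, 11 had an unadjusted p under 0.05, all higher, against 12.1% of all genes higher and 7.33% lower, and 15 lay above all siRNA-NC arrays, against 29.1%. Tyms, for thymidylate synthase, stood at 1.43 ± 0.21 (adjusted p = 0.0749), Uhrf1 at 1.28 ± 0.22 and the replicative helicase gene Mcm5 at 1.43 ± 0.28 (adjusted p = 0.101 and 0.119). Among 14 mitosis genes the median was 0.08 and 2 fell, Cdk1 at -3.18 ± 0.21 and Aurkb at -3.09 ± 0.36 (adjusted p = 0.0232 and 0.0499991, for Aurkb just under the threshold). Another kept probe of Cdk1 gave 0.24. The single spots of the Cdk1 and Aurkb probes lay in dark blocks on siRNA-MEG3 arrays 1 and 3, so both were lost when such spots were left out. On array 2, where they lay outside, Cdk1 read 0.0429 and Aurkb 0.0141, against 0.275 to 0.483 and 0.122 to 0.186 on the siRNA-NC arrays.

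Muscle differentiation genes, which are switched on when myoblasts leave the cycle, were much higher with siRNA-MEG3. Of 20 measured, 14 rose, 0 fell and 6 did not pass, with a median of 4.22. The myosin light chain gene Myl1 rose by 6.59 ± 0.32, Casq2 by 5.78 ± 0.28 and Mb, for myoglobin, by 4.45 ± 0.21 (adjusted p = 0.0188 for each). Myh1, Myh8 and Cav3 rose too (adjusted p = 0.0188 for each), at 5.99 ± 0.26, 5.10 ± 0.24 and 4.62 ± 0.23. Of the 3 siRNA-NC arrays, only 1, 2 and 1 measured these genes well above background, so their sizes are less certain. Myh1, Myh8 and Cav3 passed the filter on dim probes only through the siRNA-MEG3 arrays, where they are high. Their adjusted p and their place among the 14 are thus not independent of that filter. Myog, for the myogenin factor, was chosen after its values were seen. It read 2.40, 2.36 and 2.36 on siRNA-MEG3 arrays 1 to 3 and 0.193, 0.237 and 0.196 on siRNA-NC arrays 1 to 3, a rise of 3.46 ± 0.22 (adjusted p = 0.0232).

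Other p53 targets, factors upstream of the members, and imprinted or Polycomb regulators were mixed. Of 14 p53 targets other than Cdkn1a, 2 rose, the cell death genes Pmaip1 at 2.70 ± 0.24 and Perp at 2.23 ± 0.22 (adjusted p = 0.0311 and 0.0393), 0 fell, 10 of 14 fold changes were negative and the median was -0.07. Bax, another cell death gene, stood at -1.23 ± 0.20 (adjusted p = 0.0944). Of 18 measured upstream factors 1 passed, Gata6, which rose by 2.06 ± 0.20 (adjusted p = 0.0389), and 17 did not. Fos stood at 1.79 ± 0.23 (adjusted p = 0.0593), Myod1 at 2.29 ± 0.43 (adjusted p = 0.113) and Myf5 at -2.87 ± 0.41 (adjusted p = 0.0729). Of 6 measured imprinted or Polycomb regulators, Cbx7, a Polycomb gene known to repress the Cdkn2a locus, fell (adjusted p = 0.0188). It was below background on all siRNA-MEG3 arrays and at least 17.7-fold lower. The measured log2 means were -6.96 for siRNA-MEG3 and -2.25 for siRNA-NC, and its spot lay outside the dark blocks. Cbx7 passed the filter on dim probes only through the siRNA-NC arrays, where it is high. Its adjusted p is thus not independent of that filter. Bmi1, another Polycomb gene, stood at 0.35 ± 0.23 (adjusted p = 0.494).

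**Figure D4:**
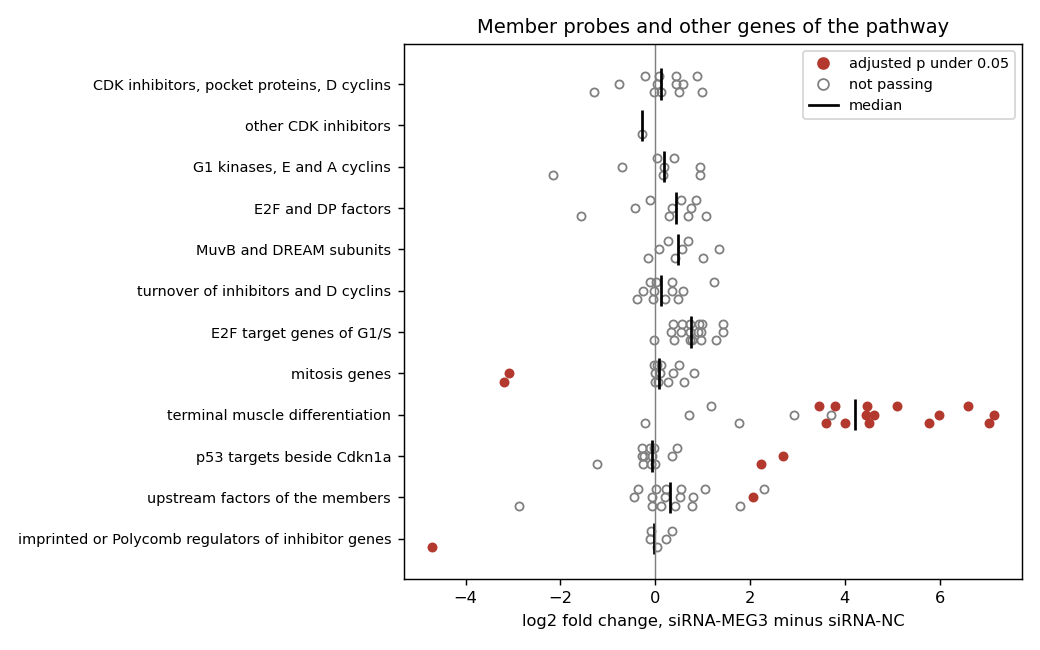
Log2 fold change of siRNA-MEG3 minus siRNA-NC (horizontal axis) for the 13 member probes (top row) and for genes of 11 other groups, 1 point per probe or gene, filled red where the adjusted p was under 0.05, with a black line at each median. All 13 member points are open and lie between -1.28 and 0.98, while 14 of 20 muscle differentiation genes are filled, with a median of 4.22.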

How the data were processed

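The deposited scanner files give a processed intensity per spot, which Feature Extraction 11.0.1.1 had background-subtracted and detrended array by array, per the file headers, beside median spot and background intensities and quality marks. The authors' deposited table of the series holds log2 values of 30732 probes; its columns had medians of 8.11, followed the log2 processed signals (r from 0.9991 to 0.9997), and were used as an alternative only, since the exact scaling between arrays stayed unknown.

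Control and outlier spots were left out, spots of a probe were averaged as log2, and each array was set relative to its 75th percentile. Probes were named through RefSeq accessions (GRCm38.p6 table; 27234 of 39429 named); the array design uses an older build, so gene coordinates are not given. Probes well above background on all 3 arrays of a group, with a usable value in every sample, were kept, leaving 26345. Repeated spots used for the array check were clean and well above background, at least 8 per probe. The test was lmFit and eBayes from limma 3.58.1, run in R 4.3.3 (2-sided, 2 residual degrees of freedom), with Benjamini-Hochberg adjustment over all kept probes and a threshold of 0.05. The code was tested on simulated data. Named genes were all member probes and, from each group of pathway genes, those passing (up to 6) and up to 3 more, in order of p; exceptions are marked. The members and gene groups were chosen with earlier results of these data known. Alternatives covered sample counting, scaling, background correction, filters, outlier spots, probes per gene and single arrays; leaving out spots in dark blocks was added after seeing the data.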

Additional observations from a re-analysis of the deposited data

How the results depend on the processing

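Over 20 alternatives, 0 member probes passed lower except for 1 without siRNA-MEG3 array 2, and 0 passed higher except for 3 with all 6 arrays as samples, 1 with 5 samples and 1 with the 6 arrays and a replicate block. The count of all probes, 263 higher and 98 lower, became 4320 and 2616 with 6 samples and 1307 and 943 with 5 samples. With 6 arrays and the replicate number as a block it became 2176 and 1447. These fits count siRNA-NC arrays 1 and 3 as separate samples, and those with 6 arrays also siRNA-MEG3 arrays 1 and 3. Arrays this alike make the spread too small if they are not independent, which was not settled for siRNA-NC arrays 1 and 3. The block in the 4-sample fit gave 189 and 72; same-numbered arrays did not deviate together (r from -0.04 to -0.03), so the numbers were not taken as pairs. With the factor from probes of at least 30 in intensity 65 were lower, without spots in dark blocks 148 were lower, and 137 were higher and 21 lower in the values deposited by the authors. Normexp on all spots gave 0 and 0 by limma (1079 at an unadjusted p under 0.05), moving the median of all probes to 0.62 (0.68 for the brighter Rbl1 probe); a bright speck of 18 spots on siRNA-MEG3 array 2 was behind part of this, since without it 184 and 97 passed and the median was 0.17. With dim probes kept in the fit, 0 and 0 passed by limma (5273 at an unadjusted p under 0.05). When single arrays were left out, the higher calls ranged between 0 and 998 and the lower ones between 0 and 1741, with 0 to 0 member probes higher and 0 to 1 lower. Without array 2 of either group its lone sample is assumed to vary like the other group.

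Directions turned for Cdkn2c (-0.0127 with the intensity factor, -0.14 with normexp, -0.0345 with outlier spots kept, -0.0373 in the authors' values, -0.0345 to 0.212 over single arrays left out, lowest without siRNA-NC array 1), Rbl2 (-0.19 with normexp, -0.0080 without the speck, -0.0102 in the authors' values), the dimmer Rbl1 probe (0.81 with normexp, 0.0641 without the speck, -0.666 to 0.0124 over single arrays left out, highest without siRNA-MEG3 array 2), Ccnd1 (-0.251 to 0.0663, highest without siRNA-NC array 2) and the dimmer Cdkn1a probe (1.23 with normexp on all spots). The cause was not tested for these. Leaving out dark blocks kept 8 of 13 member probes, of which none passed. The 5 lost were the brighter and dimmer Rbl1 probes, the Rbl2 and Cdkn1c probes and the dimmer Cdkn1a probe. The brighter Rbl1 probe, with the smallest p of the members, was thus not tested there. The number of samples limits the precision, and the dimmer Cdkn1a probe was not well above background on 2 of 6 arrays.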
